A study of Homo sapiens with 12 samples.

Results

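The loss of Axl was examined in cells that had not been made resistant to Regorafenib (Rego). Members are the libraries of the control cells, namely 3 of SNU449 and 3 of SNU449-Axl-, which are 6 of the 12 libraries of the series. They were chosen by their labels alone, and the comparison was recomputed from the values that the authors deposited for each library. SNU449 is a mesenchymal-like human hepatocellular carcinoma cell line of wild-type AXL, and SNU449-Axl- is its derivative in which AXL was knocked out by CRISPR/Cas9. Both were labelled as naive for the drug and were grown in RPMI with serum. The growth protocol, which is the same text for every sample, adds Rego after splitting without saying to which cells. The other 6 libraries are from the Rego-resistant cells of both genotypes and serve here for comparison only. Whether SNU449-Axl- is 1 clone or a pool is not given in the sources used here. The 3 libraries of a group are technical triplicates of 1 cell population, so that p-values measure the spread between libraries, and differences made by the editing cannot be told apart from other differences between these 2 populations.

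Axl is a receptor tyrosine kinase of the TAM family, together with Tyro3 and MerTK. Its ligand Gas6 bridges it to phosphatidylserine on membranes, and the activated receptor signals through PI3K/AKT, MAPK and STAT pathways. In liver cancer Axl is known as a marker and driver of the mesenchymal-like state, and TAM receptors in immune cells are known to restrain interferon and cytokine responses.

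Messenger RNA was read at its 3′ end (QuantSeq), and each library has 1 whole number per gene. This value is 2 raised to the variance-stabilized level of the gene after the authors had removed the effect of the preparation date, so that it is no read count, has a minimum of 24 in these libraries and understates changes of weakly expressed genes. The depth per library is unknown, and its effect on precision shows only in the spread of the values. Groups were compared with limma on log2 of the values, and the replicate number entered the model as a block. The reason is that same-numbered libraries of both groups deviate from their group means as mirror images (Pearson's r between -0.9999 and -0.9997 for the 3 numbers, a description across 8130 genes). The spread is therefore nearly the same in both groups and cannot be assigned to a library of one of them. Of the cell type markers, VIM, FN1, CDH2 and ZEB1 of mesenchymal cells and KRT8 and KRT18 of epithelial cells were listed, whereas CDH1, EPCAM, ALB, HNF4A, the endothelial markers PECAM1, CDH5 and VWF and the erythroid markers HBA1 and HBB were not. AFP and the leucocyte marker CD14 were listed with mean normalized counts of 4.92 and 5.32.

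Of the 14035 genes tested, 599 were called at a Benjamini-Hochberg adjusted p under 0.05, which is 4.27% of all genes. In SNU449-Axl- control cells 327 were higher (2.33%) and 272 lower (1.94%). The difference was at least 1 on the log2 scale for 148 of the higher and 111 of the lower genes, and the median over all genes was 0.001. The 6 libraries of each called gene did not overlap between the groups, which holds for 40.5% of all genes. Without the block 3751 genes were called, 1982 higher (14.1%) and 1769 lower (12.6%), 26.7% in all. With only 4 of the 6 libraries, leaving out replicate 1, 2 or 3, the count was 0 each time, with 1864, 1256 and 2532 genes at an unadjusted p under 0.05. The 15 spike-in RNAs with a mean normalized count of at least 20 were lower in SNU449-Axl- by 0.28 on the log2 scale on average (SD 0.217 over the 3 replicate numbers). Centred on them, 1967 genes were higher and 164 lower, and the median over all genes moved to 0.28. Differences below are given without this shift.

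AXL itself was the check of the genotype. On chromosome 19 of GRCh38 (chr19:41219223-41261766, plus strand), it had values of 790, 746 and 803 in SNU449 and of 55, 58 and 54 in SNU449-Axl-. The groups lie far apart, with -3.81 on the log2 scale (standard error 0.164). In limma its Benjamini-Hochberg adjusted p was 1.6e-05. The mean normalized counts solved from the authors' means were 758 in SNU449 and 27.6 in SNU449-Axl-, on a scale on which the median gene was higher by 0.15 (log2) in SNU449-Axl-. In bulk RNA, fewer cells that express a gene and less RNA per cell cannot be told apart, which holds for every gene below.

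Of the other TAM receptors, TYRO3 had a log2 difference of -0.06 (standard error 0.171) and MERTK of 0.03 (standard error 0.132), and neither passed the test. The sign of TYRO3 rests on the scaling, with 0.22 when centred on the spike-in RNAs. GAS6, the ligand of Axl, had values of 101, 88 and 89 in SNU449 and of 133, 152 and 150 in SNU449-Axl-, which do not overlap. Its log2 difference of 0.65 missed the threshold (standard error 0.161, adjusted p = 0.0579 from limma). Without the block, where 26.7% of all genes were called, GAS6 passed (adjusted p = 0.00485 from limma). PROS1, the second TAM ligand, differed by 0.18 (standard error 0.176). FGF2, which encodes basic fibroblast growth factor, had 638, 664 and 640 in SNU449 and 406, 390 and 404 in SNU449-Axl-. Its difference of -0.69 also missed the threshold (adjusted p = 0.0642 from limma) and also passed without the block (adjusted p = 0.00185 from limma).

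The largest fall was that of UCHL1, a ubiquitin hydrolase of neurons and of some tumors. Its values were 1087, 1232 and 1398 in SNU449 and 44, 39 and 34 in SNU449-Axl- (log2 difference -4.99, standard error 0.191). BCAT1, which transfers the amino group of branched-chain amino acids, was close to the minimum in SNU449-Axl- as well, with 32, 38 and 43 against 616, 516 and 464 (-3.82, standard error 0.192). VCAM1, the adhesion molecule for leucocyte integrins, had 579, 725 and 1468 in SNU449 and 86, 69 and 34 in SNU449-Axl-. Its difference of -3.86 came with a wide spread (standard error 0.413), from -2.75 in replicate 1 to -5.43 in replicate 3. The zinc finger protein gene CXXC5 and the apolipoprotein L gene APOL1 were lower as well (-3.23 and -3.07).

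FN1, which encodes fibronectin, a matrix protein and mesenchymal marker, had 2393, 2115 and 2824 in SNU449 and 455, 515 and 385 in SNU449-Axl- (-2.44, standard error 0.219). The transcription factor gene HLF had a difference of -2.49 and ranged from 295 to 620 in SNU449 and from 45 to 95 in SNU449-Axl-. Among the 12 largest falls were further TSPAN7 (-2.18), MACROD2 (-2.13), the protease gene TMPRSS15 (-2.01) and NHS (-2.00).

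Of the rises, that of the hair keratin gene KRT81 was the largest. Its values were 79, 51 and 45 in SNU449 and 801, 1244 and 1398 in SNU449-Axl-, a log2 difference of 4.30 (standard error 0.284). KRT81 and KRT86 are near-identical neighbours, so that the share of each in these reads is uncertain. KRT7, a keratin of simple epithelia such as bile ducts, had 68, 28 and 39 in SNU449 and 223, 543 and 392 in SNU449-Axl- (3.11, standard error 0.383). PADI3, a peptidylarginine deiminase gene of hair follicles, rose from 263, 185 and 135 to 999, 1420 and 1944 (2.90, standard error 0.316).

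WNT7B, a Wnt ligand, was tight in both groups, with 78, 87 and 86 in SNU449 and 511, 457 and 460 in SNU449-Axl- (2.51, standard error 0.168). ARHGDIB, a gene that is abundantly expressed in blood cells, was as tight, with 78, 74 and 68 against 396, 417 and 452 (2.52, standard error 0.167). In contrast, COL1A1, the main chain of type I collagen, had 428, 151 and 73 in SNU449 and 579, 1642 and 3392 in SNU449-Axl-. Its log2 difference of 3.14 had a standard error of 0.718 (adjusted p = 0.0449 from limma) and ran from 0.44 in replicate 1 to 5.54 in replicate 3. PCDH9 (2.87), ANKRD1 (2.74), NRK (2.34), COL11A1 (2.25), IVNS1ABP (2.19) and FRMD4A (2.14) complete the 12 largest rises, and the difference of FRMD4A ran from 0.57 in replicate 1 to 3.80 in replicate 3.

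**Figure D1:**
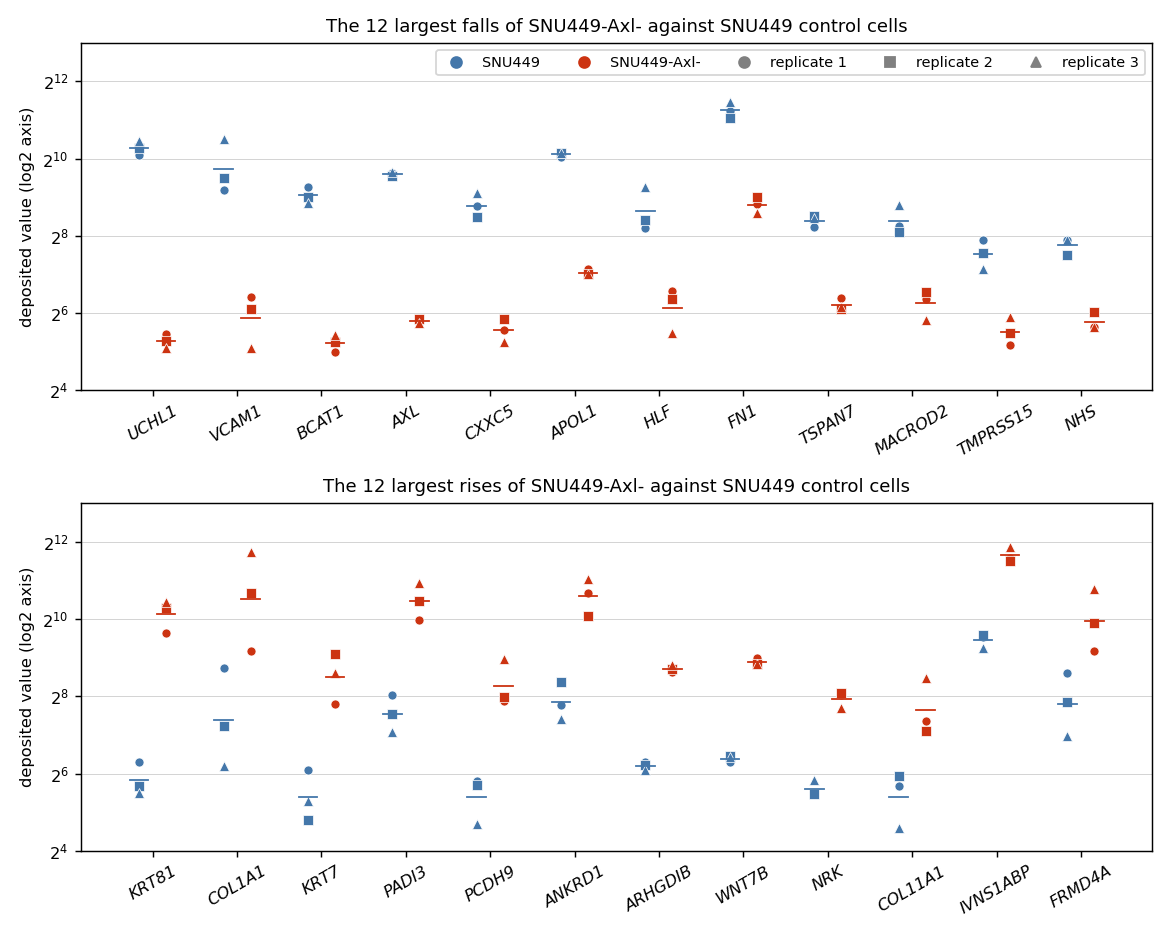
Deposited value of each library on a log2 axis for the 12 largest falls and the 12 largest rises among called genes, with SNU449 control cells in blue and SNU449-Axl- control cells in red, symbols for the replicate number and bars for the mean of the log2 values of 3 libraries. The groups of each gene lie apart, which the choice of genes required. The spread is tight for AXL, APOL1, WNT7B and ARHGDIB and wide for COL1A1, whose values run from 73 to 428 and from 579 to 3392.

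**Figure D2:**
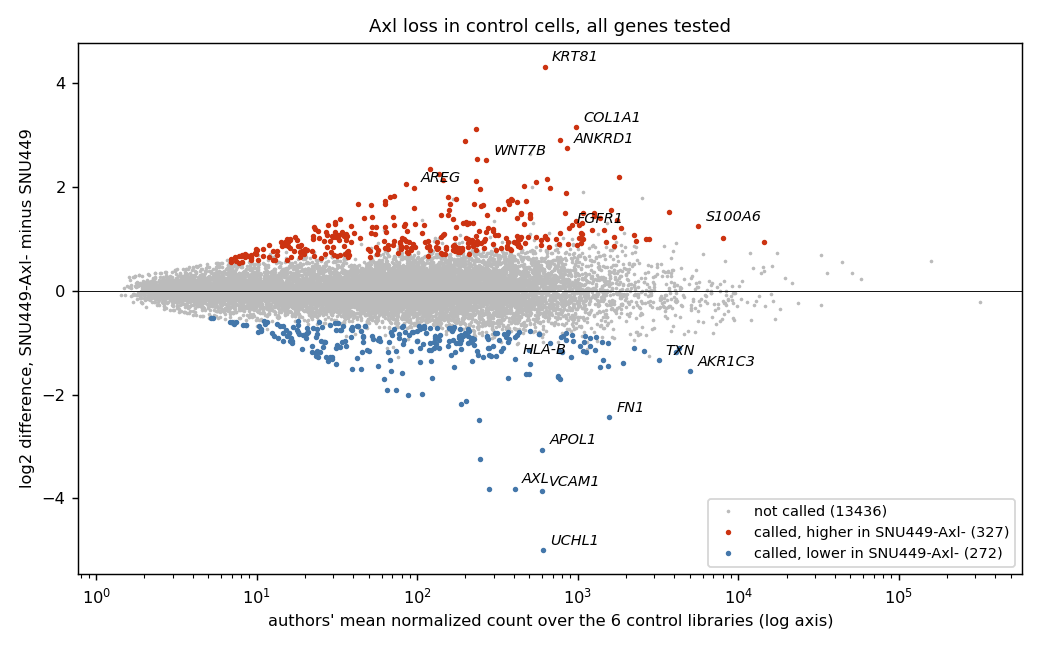
Log2 difference of each of the 14035 genes, SNU449-Axl- minus SNU449 control cells, against the authors' mean normalized count over the 6 control libraries on a log axis. Called genes are 327 higher (red) and 272 lower (blue), and the differences of weakly expressed genes at the left are confined by the minimum of the deposited values.

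Signalling genes were described by role. Counts of called members in these and later lists stand beside 2.33% higher and 1.94% lower of all genes in control cells. Of 11 tested genes of the ErbB family and its ligands and inhibitors, 3 were higher and 1 lower, with a list median of 0.22 beside 0.001 for all genes. The receptors EGFR (0.03, standard error 0.247), ERBB2 (-0.20, standard error 0.153) and ERBB3 (0.22, standard error 0.138) did not pass the test, and ERBB4 was not listed in the control libraries. Centred on the spike-in RNAs, ERBB2 had 0.08, and without replicate 3 EGFR had -0.32. The called genes were 3 ligands of EGFR and 1 inhibitor of ErbB receptors. AREG, which encodes amphiregulin, had 35, 58 and 56 in SNU449 and 265, 158 and 165 in SNU449-Axl- (1.98, standard error 0.266). EREG, which encodes epiregulin, had 82, 115 and 111 in SNU449 and 488, 350 and 361 in SNU449-Axl- (1.96, standard error 0.216). The log2 differences of both differ by less than their standard errors. TGFA, another ligand of EGFR, had values of 60, 61 and 51 in SNU449 and of 36, 35 and 42 in SNU449-Axl-, near the minimum of the values (-0.61, adjusted p = 0.0486 from limma). It missed the threshold when centred on the spike-in RNAs (-0.33) and without the trend in limma. HBEGF, a ligand as well, had 0.66 and was not called, and LRIG1, which promotes the degradation of ErbB receptors, was higher (0.75).

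Of 20 other receptor tyrosine kinases, 3 were higher and 2 lower, with a median of -0.04. FGFR1, a receptor of fibroblast growth factors, had 468, 521 and 622 in SNU449 and 1392, 1252 and 1049 in SNU449-Axl- (1.20, standard error 0.215). EPHA7 (1.19) and ROR1 (0.84) were also higher, whereas NTRK3 (-1.01) and ROR2 (-0.82) were lower. MET, the receptor of hepatocyte growth factor, had a difference of -0.07. Among 15 growth factors, the stress-responsive GDF15 was higher, with 1152, 917 and 1120 in SNU449-Axl- against 248, 311 and 255 in SNU449 (1.97, standard error 0.203), as was ANGPT1 (1.06), and PDGFC was lower (-1.14).

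Pathways downstream of these receptors were examined next. Of 22 genes of MAPK output and feedback, CCND1, which encodes cyclin D1, was higher (1.27, standard error 0.234), as was the transcription factor gene ETV5 (0.81), and the list median was 0.21. None of 21 PI3K, AKT and mTOR genes was called by limma, with 4 at an unadjusted p under 0.05 and 7 called without the block. Of 18 STAT and SOCS genes, SOCS1, a feedback inhibitor of JAK kinases, was lower (-0.70). None of 42 cell cycle genes was called by limma, with 8 at an unadjusted p under 0.05 and 12 called without the block. Their differences lay between -0.68 and 0.59 around a median of 0.01, which is -0.02 when centred on the upper quartile. Of 13 genes of the BCL2 family none was called, with 2 at an unadjusted p under 0.05, 2 called without the block and differences from -0.30 to 0.39.

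Of 29 targets and partners of YAP and TEAD, the mechanosensitive transcription factors of the Hippo pathway, 2 were higher, and the median of 0.02 was just below 0 when centred on the upper quartile. ANKRD1, a cardiac ankyrin repeat protein gene and common reporter of YAP activity, had 219, 332 and 169 in SNU449 and 1627, 1074 and 2106 in SNU449-Axl- (2.74, standard error 0.321). NT5E, which encodes the ectonucleotidase CD73, had a difference of 1.75. CCN1 (0.69) and CCN2 (0.93), frequent reporters as well, missed the threshold. The 250 bases before the start of ANKRD1 (RefSeq on GRCh38.p14, chr10:90921088-90921337, minus strand) are shown because they hold the TEAD motif GGAATG, in capitals, at 2 places. This motif, searched on both strands, is in 9.49% of all 10168 promoters matched to a tested gene, in 33.3% of the 21 matched promoters of the list, and not in that of NT5E.
ANKRD1: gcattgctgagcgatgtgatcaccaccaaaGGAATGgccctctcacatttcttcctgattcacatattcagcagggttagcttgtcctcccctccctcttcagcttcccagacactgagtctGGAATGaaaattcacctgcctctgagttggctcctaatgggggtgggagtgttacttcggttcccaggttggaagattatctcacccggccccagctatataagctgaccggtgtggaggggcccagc

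Epithelial and mesenchymal genes were examined because Axl marks the mesenchymal-like state. Of 18 tested genes of epithelial junctions and keratins, 5 were higher and 0 lower, with 15 differences above 0 and a median of 0.35. Beside KRT81, KRT7 and KRT86, these were CLDN1, a tight junction claudin (1.30, standard error 0.200), and JUP, which encodes plakoglobin (0.95, standard error 0.187). Of 18 transcription factors of the epithelial to mesenchymal transition and mesenchymal markers, FN1 was lower, and S100A4 (1.09), known as fibroblast-specific protein, and FAP (1.02), a fibroblast activation protease, were higher. VIM, which encodes vimentin, had 0.24 (standard error 0.216), CDH2, which encodes N-cadherin, had 0.01 (standard error 0.335) and ZEB1 had -0.04 (standard error 0.242), none of which passed the test. Of 8 S100 genes, S100A6 was higher beside S100A4, with 7874, 8357 and 8614 in SNU449-Axl- against 3695, 3481 and 3377 in SNU449 (1.24, standard error 0.204).

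Of 24 collagens and collagen-processing enzymes, 5 were higher and 0 lower, and the median was 0.17. Beside COL1A1 and COL11A1, these were COL6A1 (1.76, standard error 0.218), COL5A2 (1.08) and PLOD2, a lysyl hydroxylase of collagen (1.39, standard error 0.180). COL1A2, the partner chain of COL1A1 in type I collagen, had a difference of -0.74 and did not pass the test. ITGB5, an integrin chain that binds vitronectin, had 198, 175 and 160 in SNU449 and 504, 570 and 622 in SNU449-Axl- (1.67, standard error 0.189), and the laminin gene LAMB3 was higher as well (0.81). SERPINE2, an inhibitor of serine proteases, was 1 of 2 called genes among 27 matrix proteases and inhibitors, with 1756, 1841 and 2612 against 6685, 6376 and 4494 (1.50, standard error 0.261), and MMP16 was the other (-0.75).

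TGF-beta and BMP genes had 4 of 38 higher and 0 lower, with a median of 0.20. ID3, an inhibitor of differentiation induced by BMP, had 114, 115 and 161 in SNU449 and 449, 445 and 317 in SNU449-Axl- (1.64, standard error 0.225). The decoy receptor gene BAMBI (1.45) and the ligands BMP4 (1.14) and BMP6 (1.03) were higher too, while ID1 (-0.29) and ID2 (-0.51) did not pass the test. Of 26 Wnt genes, 4 were higher and 0 lower. Beside WNT7B these were the receptor gene FZD2 (1.08, standard error 0.208) and the pathway inhibitors NKD2 (0.93) and RNF43 (0.62). Of 10 Notch genes none was called by limma, with 2 at an unadjusted p under 0.05 and 1 called without the block.

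**Figure D3:**
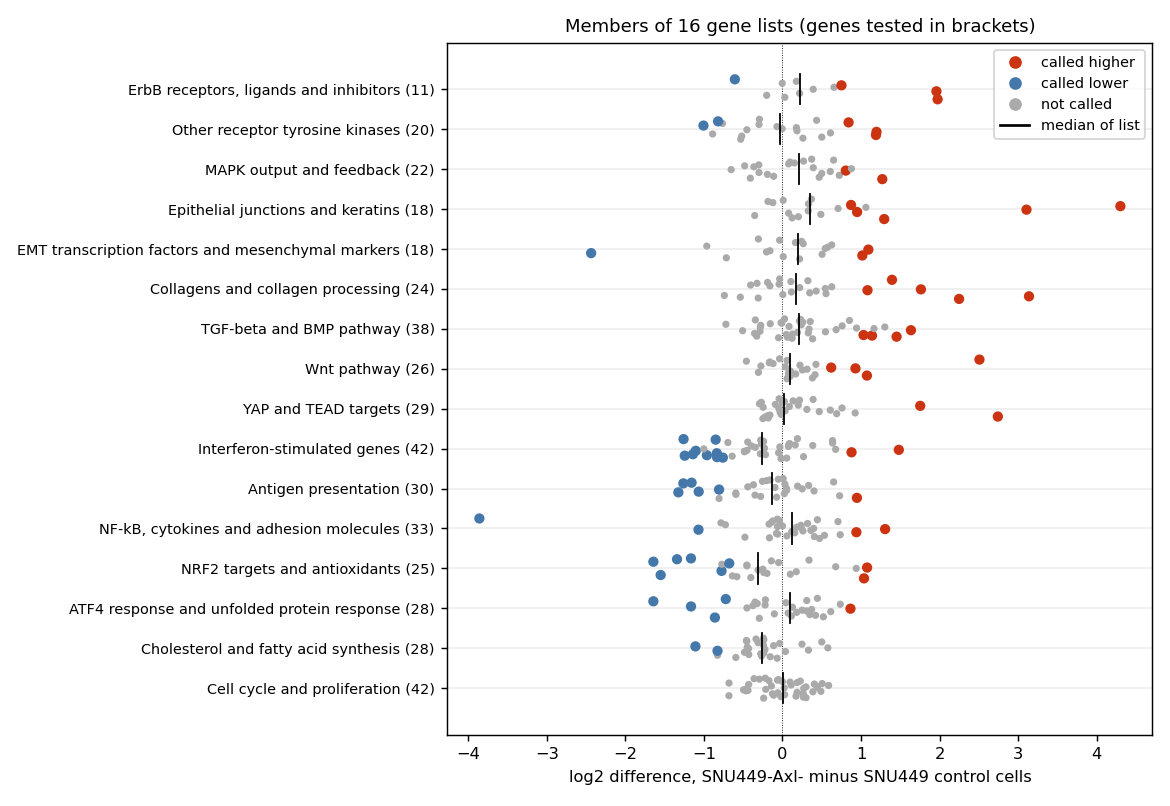
Log2 difference between SNU449-Axl- and SNU449 control cells for each tested member of 16 gene lists, with called genes in red (higher) and blue (lower), other genes in grey and the list median as a black bar. Called members of the epithelial, collagen, TGF-beta and Wnt lists lie at the right, and most of those of the interferon, antigen presentation and NRF2 lists at the left.

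Interferon-stimulated genes had the most calls of all lists. Of 42 tested, 9 were lower and 2 higher, against 1.94% and 2.33% of all genes, and the median was -0.26. Centred on the spike-in RNAs, the median was 0.02, with 7 lower and 6 higher, so that the direction of the list rests on the scaling. UBE2L6, which conjugates the ubiquitin-like protein ISG15, had 383, 436 and 421 in SNU449 and 186, 163 and 169 in SNU449-Axl- (-1.26, standard error 0.175). GBP2, a guanylate-binding protein, had 431, 365 and 372 against 148, 174 and 171 (-1.24, standard error 0.180). IFI16, a DNA sensor, was lower by a similar amount with a wider spread (-1.14, standard error 0.265). IFIT3, which binds foreign RNA with its family, had 404, 350 and 415 in SNU449 and 174, 201 and 169 in SNU449-Axl- (-1.10). The other lower members were GBP3, TRIM22, IFI44, DDX60 and DDX60L, from -0.96 to -0.76.

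The higher genes were IFITM2 and IFIH1. IFITM2, a membrane protein that blocks viral entry, was higher, with 609, 809 and 518 in SNU449-Axl- against 237, 178 and 278 in SNU449 (1.48, standard error 0.247), although its reads cannot be fully separated from those of its near-identical neighbours. The RNA sensor gene IFIH1 was higher as well (0.88). MX1 (-0.39), ISG15 (-0.35) and IFIT1 (-0.48) did not pass the test.

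The 250 bases before the start of 4 lower genes are shown because they hold the interferon-stimulated response element, the site that IRF and STAT complexes bind. It was searched as GAAA, 2 bases of any kind and GAAA again on both strands, and matches are in capitals. They are from RefSeq on GRCh38.p14, namely IFIT3 (chr10:89327747-89327996, plus strand), IFI44 (chr1:78649539-78649788, plus strand), DDX60 (chr4:168318753-168319002, minus strand) and DDX60L (chr4:168480493-168480742, minus strand). DDX60 and DDX60L, with differences of -0.76 and -0.83, lie in the end stretch of chromosome 4 described below. Its genes had a median difference of -0.71.
IFIT3: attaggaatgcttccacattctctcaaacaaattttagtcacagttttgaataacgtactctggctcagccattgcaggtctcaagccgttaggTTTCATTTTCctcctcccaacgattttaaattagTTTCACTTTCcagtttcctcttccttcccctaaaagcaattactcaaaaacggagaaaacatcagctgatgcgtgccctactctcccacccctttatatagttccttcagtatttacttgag
IFI44: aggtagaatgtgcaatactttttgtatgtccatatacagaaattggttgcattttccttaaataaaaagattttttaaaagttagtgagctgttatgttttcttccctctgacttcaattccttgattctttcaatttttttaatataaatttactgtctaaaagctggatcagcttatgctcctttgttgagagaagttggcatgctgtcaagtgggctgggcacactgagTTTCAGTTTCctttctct
DDX60: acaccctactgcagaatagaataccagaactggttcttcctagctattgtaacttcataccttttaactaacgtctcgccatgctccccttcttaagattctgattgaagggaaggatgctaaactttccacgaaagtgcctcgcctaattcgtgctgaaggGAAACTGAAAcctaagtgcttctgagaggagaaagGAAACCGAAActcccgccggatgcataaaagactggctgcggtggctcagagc
DDX60L: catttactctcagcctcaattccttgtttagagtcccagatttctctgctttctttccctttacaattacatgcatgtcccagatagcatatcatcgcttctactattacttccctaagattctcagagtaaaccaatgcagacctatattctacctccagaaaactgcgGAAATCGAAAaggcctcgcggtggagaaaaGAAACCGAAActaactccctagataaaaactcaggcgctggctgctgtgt

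The element was in 2.29% of the 10168 promoters of tested genes, in 0.862% of the 232 promoters of higher genes and in 7.48% of the 214 promoters of lower genes. Of the 58 matched members of the interferon, antigen presentation and APOL lists 44.8% held it, and of their 11 matched lower members 36.4%. The promoters of UBE2L6, IFI16, GBP3, PSMB8, PSMB9, HLA-B and HLA-C held none within these 250 bases. The share among the lower members was thus not above that of their lists.

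Antigen presentation had 5 of 30 genes lower and 1 higher, with a median of -0.13 that became 0.15 when centred on the spike-in RNAs. HLA-B, a chain of class I molecules, had 593, 519 and 617 in SNU449 and 222, 254 and 214 in SNU449-Axl- (-1.33, standard error 0.186), and HLA-C had -1.07 (standard error 0.196). Class I genes are near-identical, which leaves the split between them uncertain. PSMB8 (-1.26) and PSMB9 (-1.16), interferon-inducible subunits of the immunoproteasome, lie next to each other on chromosome 6 and were lower to a like extent, and HLA-DRA was lower by less (-0.81). B2M, the light chain of class I, had -0.81 and missed the threshold, and CALR, a chaperone of class I loading, was higher (0.95). Of 4 tested genes of the APOL cluster on chromosome 22, APOL1 (-3.07) and APOL2 (-0.88) were lower and APOL6 (-0.74) and APOL3 (-0.51) missed the threshold, with a list median of -0.81. Among 33 genes of NF-kB, cytokines and adhesion molecules, VCAM1 and the cytokine gene IL15 (-1.07) were lower and IL18 (1.31) and the chemokine gene CXCL5 (0.94) higher. Of 3 listed leucocyte genes and 1 endothelial gene, none was called by limma, with 1 of each at an unadjusted p under 0.05 and 1 of each called without the block.

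Targets of NRF2, the transcription factor of the antioxidant response, had 6 of 25 genes lower and 2 higher, with 18 of 25 differences below 0 and a median of -0.31. Centred on the spike-in RNAs the median was -0.03, with 4 lower and 4 higher. SLC7A11, which imports cystine for glutathione synthesis, had 979, 1282 and 1061 in SNU449 and 396, 302 and 365 in SNU449-Axl- (-1.64, standard error 0.210). TXN, which encodes thioredoxin, had 3967, 5426 and 5508 against 2399, 1754 and 1728 (-1.34, standard error 0.245). TXNRD1, the reductase that recycles thioredoxin, had 3363, 4242 and 4348 against 2078, 1647 and 1608 (-1.16, standard error 0.226). AKR1C3, an aldo-keto reductase, had -1.55 (standard error 0.255), but shares near-identical stretches with AKR1C1 and AKR1C2. GCLC, the rate-limiting enzyme of glutathione synthesis, was lower too (-0.78), as was OSGIN1 (-0.68). HMOX1, the heme oxygenase, went the other way (1.08), as did AKR1B1 (1.04).

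Only the promoter of TXNRD1 among 5 matched lower NRF2 targets held the antioxidant response element, searched as TGACNNNGC on both strands, which is in 12.2% of all promoters. The letters of this element can overlap those of an AP-1 site. It is in capitals in the 250 bases from RefSeq on GRCh38.p14 (chr12:104215529-104215778, plus strand).
TXNRD1: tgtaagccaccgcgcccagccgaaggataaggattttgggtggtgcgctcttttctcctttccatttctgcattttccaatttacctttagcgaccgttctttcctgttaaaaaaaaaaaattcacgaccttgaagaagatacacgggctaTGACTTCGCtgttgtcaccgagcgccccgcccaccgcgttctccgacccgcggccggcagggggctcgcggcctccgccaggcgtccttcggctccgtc

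Stress responses and metabolism followed. Of 28 genes of the ATF4 response and the unfolded protein response, 4 were lower and 1 higher. However, 16 of the 28 differences were above 0, with a median of 0.09. Centred on the spike-in RNAs, 2 were lower and 7 higher. ATF4 itself had 1058, 1214 and 1197 in SNU449 and 694, 604 and 613 in SNU449-Axl- (-0.86, adjusted p = 0.0429 from limma). ATF4 missed the threshold when centred on the spike-in RNAs (-0.58) and in the fit on all 12 libraries (-0.76). Its target PHGDH, the first enzyme of serine synthesis, was lower as well (-1.16). MANF, a factor secreted under stress of the endoplasmic reticulum, was higher (0.87). Of 28 genes of cholesterol and fatty acid synthesis, 2 were lower, among them MSMO1 (-1.11), and 23 of 28 differences were below 0 with a median of -0.25, which became 0.03 when centred on the spike-in RNAs. PDK1 (-1.18) and BNIP3 (-1.17), both induced in hypoxia, were the called genes of 30 of glycolysis and hypoxia.

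Of 24 ABC transporters and drug-metabolizing enzymes, 3 were higher and 2 lower. CYP24A1, which inactivates vitamin D, had 181, 146 and 146 in SNU449 and 406, 502 and 503 in SNU449-Axl- (1.58, standard error 0.193). ABCB1, the efflux pump P-glycoprotein, had 73, 79 and 55 against 154, 142 and 204 (1.27, standard error 0.210). ALDH1A3 (1.37) was higher, and CYP1B1 (-1.42) and the transporter gene ABCC2 (-1.10) were lower. Of 13 tested hepatocyte genes, FGG, a fibrinogen chain, and the transcription factor gene ONECUT1 were higher (0.88 and 0.79).

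Position in the genome was examined in 205 windows of about 40 neighbouring genes, over 8102 genes with a mean normalized count of at least 50. The middle of the window medians, from the lower to the upper quartile, ran from -0.08 to 0.11. In contrast, 13 windows had a median beyond 0.4 in either direction, 6 higher and 7 lower. These held 42 higher and 1 lower gene of 236, and 1 higher and 40 lower genes of 264, respectively. The other 192 windows held 174 higher and 131 lower of 7602 genes.

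The highest window was the start of chromosome 5 (chr5:196868-34925996), with a median of 0.81, 38 of 40 differences above 0 and 23 genes higher. The median was 0.86, 0.75 and 0.87 in replicates 1, 2 and 3. Its leading genes were TARS1, the threonyl-tRNA synthetase, with 1972, 1794 and 2047 in SNU449-Axl- against 699, 769 and 674 in SNU449 (1.44), and the motor protein gene MYO10 (1.35). The next window on chromosome 5 had 0.43. The lowest window was the end of chromosome 4 (chr4:151099624-189963202), with a median of -0.71, 3 of 38 differences above 0 and 17 genes lower. Here the replicates had -0.62, -0.68 and -0.70. TENM3, a teneurin (-1.70), and PDGFC (-1.14) led it, and DDX60L and MSMO1 named above belong to it. DDX60, also named above, lies within the span of this window.

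Some whole chromosomes had medians away from 0. The medians over genes with a mean normalized count of at least 50 were 0.35 on chromosome 3, with 29 genes higher and 1 lower of 472, and 0.32 on chromosome 19. They were -0.37 on chromosome 4, with 33 lower and 5 higher of 269, -0.35 on chromosome 9, with 17 lower and 1 higher of 300, and -0.30 on chromosome 20. Those of the other 18 chromosomes lay between -0.15 and 0.17. Replicate 3 stood apart from the others along most of chromosome 9, where its window medians ran from -0.16 to 0.03. It did so too in parts of further chromosomes, among them 6, 10, 15, 16 and 17. The window chr9:109171974-122905359, which holds TXN, had -0.69 in replicate 1, -0.70 in replicate 2 and -0.06 in replicate 3, and 2 neighbouring windows had the same split. On chromosome 6 the window chr6:127288712-149718105 had -0.49, -0.51 and 0.14 in replicates 1, 2 and 3, and on chromosome 10 chr10:35126791-63521850 had -0.22, -0.23 and 0.34. On chromosome 16 the window chr16:46407-2209453 had 0.20, 0.23 and -0.33.

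Several called genes of the lists lie in such windows. SLC7A11 and IL15 are in a window of chromosome 4 with a median of -0.38, TXN in the one of chromosome 9 with -0.43, NKD2 in that of chromosome 5 with 0.81 and ITGB5 in one of chromosome 3 with 0.48. By replicate, TXN had -0.73, -1.63 and -1.67, whereas its window had -0.69, -0.70 and -0.06. In contrast, AREG and EREG, with 1.98 and 1.96, moved against their surroundings. They lie in windows of chromosome 4 with medians of -0.47 and -0.35. The windows of UCHL1, VCAM1, BCAT1, APOL1, KRT81, COL1A1 and WNT7B had small medians, from -0.18 to 0.11. Those of BCAT1 and KRT81 were opposite in sign to the gene, and the others had the same sign. Centred on the spike-in RNAs, each of these medians is 0.28 higher. Around AXL, 68 genes within 2 Mb had a median of 0.12, and 2 were called, CNFN (0.69) and PSG5 (1.59), of which the latter belongs to a near-identical family.

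**Figure D4:**
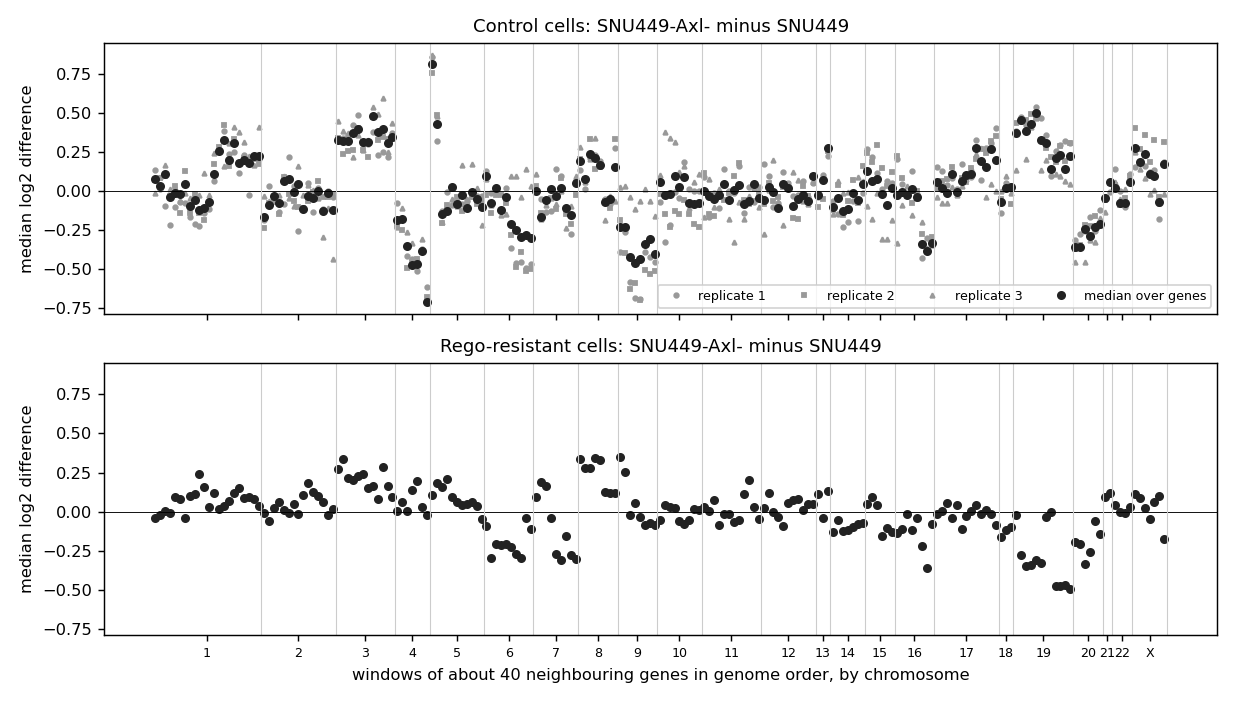
Median log2 difference between SNU449-Axl- and SNU449 cells in 205 windows of about 40 neighbouring genes in genome order, with chromosomes marked off, for control cells (upper panel, replicates in grey) and Rego-resistant cells (lower panel). The start of chromosome 5 reaches 0.81 and the end of chromosome 4 -0.71 in control cells. On parts of several chromosomes, among them 6, 9, 10 and 16, replicate 3 lies apart from the others.

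Among Rego-resistant cells, whose 6 libraries are others, 1160 of 14165 genes differed by genotype (8.19%), 610 higher (4.31%) and 550 lower (3.88%) without Axl. AXL had nearly the same difference there (-3.50, standard error 0.137). Its difference between the comparisons, fitted on the values of all 12 libraries, was 0.23 (adjusted p = 0.775 from limma). Those values were stabilized separately from the values of each pair, so that the 2 kinds of difference cannot be subtracted from each other. Across 13352 genes in both tables the differences had correlation coefficients of 0.015 (Pearson) and 0.013 (Spearman), as a description, since genes are not independent. Of the 599 genes called in control cells, 556 were listed in the Rego-resistant comparison, 276 of them with the same sign. There, 155 of the 556 were called (27.9%), 87 in the same and 68 in the opposite direction. The difference between both comparisons, tested as an interaction on all 12 libraries, was called for 916 of 15601 genes (5.87%), 461 above 0 (2.95%) and 455 below (2.92%). Of the 599 genes, 336 had a called interaction. The 599 were chosen by their control difference, which is part of the interaction, so that a high share was built in. Without replicate 1, 2 or 3 the interaction was called for 223, 112 and 745 genes.

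Several genes with the largest changes had the opposite difference among resistant cells. FN1 was lower by 2.44 on the log2 scale without Axl in control cells, but had 2.27 among resistant cells (interaction -4.71, adjusted p = 3.51e-05 from limma). In the table over 12 libraries its levels (log2) were 11.09 ± 0.54 in SNU449 control, 8.85 ± 0.28 in SNU449-Axl- control, 8.85 ± 0.48 in SNU449-Rego and 11.32 ± 0.92 in SNU449-Axl-Rego cells (SD, n = 3). APOL1 had 10.06 ± 0.089, 6.90 ± 0.165, 6.02 ± 0.290 and 7.61 ± 0.145 in the same order (SD, n = 3). In the values made for each pair of groups, its difference by genotype was -3.07 in control and 1.08 in resistant cells. Those values were stabilized separately, so that the levels of 12 libraries do not subtract to exactly these differences. The same turn was seen for VCAM1 (1.06 among resistant cells), HLF (1.79) and, in the other direction, COL1A1 (-1.33). SPP1, which encodes osteopontin and was lower in control cells (-1.16), was higher by 2.46 among resistant cells.

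Other genes did not differ detectably by genotype among resistant cells or were not listed there. KRT81, whose difference among resistant cells was 0.16, had levels of 5.27 ± 0.77 in SNU449 control, 10.06 ± 0.47 in SNU449-Axl- control, 10.07 ± 0.72 in SNU449-Rego and 10.25 ± 0.29 in SNU449-Axl-Rego cells (SD, n = 3). SNU449 control cells were thus the only ones of 4 populations with a low level. KRT7 and WNT7B had the same arrangement, with 4.71 ± 0.521 and 6.06 ± 0.096 in SNU449 control (SD, n = 3) and between 8.47 and 9.52 elsewhere. UCHL1 and BCAT1, not listed in the table of resistant cells, had the reverse arrangement in that of 12 libraries. UCHL1 was at 10.19 ± 0.22 in SNU449 control (SD, n = 3) and between 4.41 and 4.54 in the other populations, and BCAT1 was at 9.09 ± 0.34 against 4.41 to 5.05. PCDH9 was high in SNU449-Axl- control cells alone, at 8.24 ± 1.01 (SD, n = 3) beside 4.58 to 4.73 in the others.

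Called in the same direction in both comparisons were 70 higher and 17 lower genes. Beside AXL, those with the largest smaller difference of both were CYP24A1 (1.58 and 2.05), SERPINE2 (1.50 and 2.05), the retinol dehydrogenase gene RDH10 (1.46 and 1.59), PADI3 (2.90 and 1.42), TRABD2A (1.41 and 1.68), IL18 (1.31 and 1.34), NRK (2.34 and 1.29), VGLL3, a cofactor of TEAD (1.80 and 1.24), and FGFR1 (1.20 and 1.51). The interaction was not called for these genes, with adjusted p from 0.136 to 0.716 in limma, which does not show that the differences were equal. TOX2 was lower in both (-1.55 and -1.07). SERPINE2 had levels of 10.85 ± 0.58 and 9.95 ± 0.18 in SNU449 control and SNU449-Rego and of 12.31 ± 0.069 and 12.07 ± 0.50 in SNU449-Axl- control and SNU449-Axl-Rego cells (SD, n = 3).

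Some lists had medians of opposite sign in the comparisons and others did not. That of the interferon-stimulated genes was -0.26 in control and 0.28 in resistant cells, where 7 were higher and 1 lower of 39. That of the NRF2 targets was -0.31 and 0.38, with 7 of 25 higher and 0 lower among resistant cells, beside 4.31% and 3.88% of all genes. For the APOL cluster it was -0.81 and 0.28. In contrast, that of antigen presentation was -0.13 and -0.14, and that of the S100 genes 0.51 and 0.45. Centred on the spike-in RNAs, the control medians were 0.02 (interferon), -0.03 (NRF2), -0.53 (APOL) and 0.15 (antigen presentation). The signs of the interferon and antigen presentation medians in control cells thus rest on the scaling. Medians of resistant cells were not taken with this centring. Of the interferon, NRF2 and APOL lists, 11 of 42, 9 of 25 and 4 of 4 members had a called interaction, beside 5.87% of all genes. Among resistant cells the highest and the lowest window of control cells had medians of 0.11 for the start of chromosome 5 and -0.02 for the end of chromosome 4. In contrast, the 4 windows of chromosome 19 with medians from 0.38 to 0.50 had -0.35 to -0.28 there. The window before them had 0.37 in control and -0.02 in resistant cells, and the window after them 0.32 and -0.33.

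**Figure D5:**
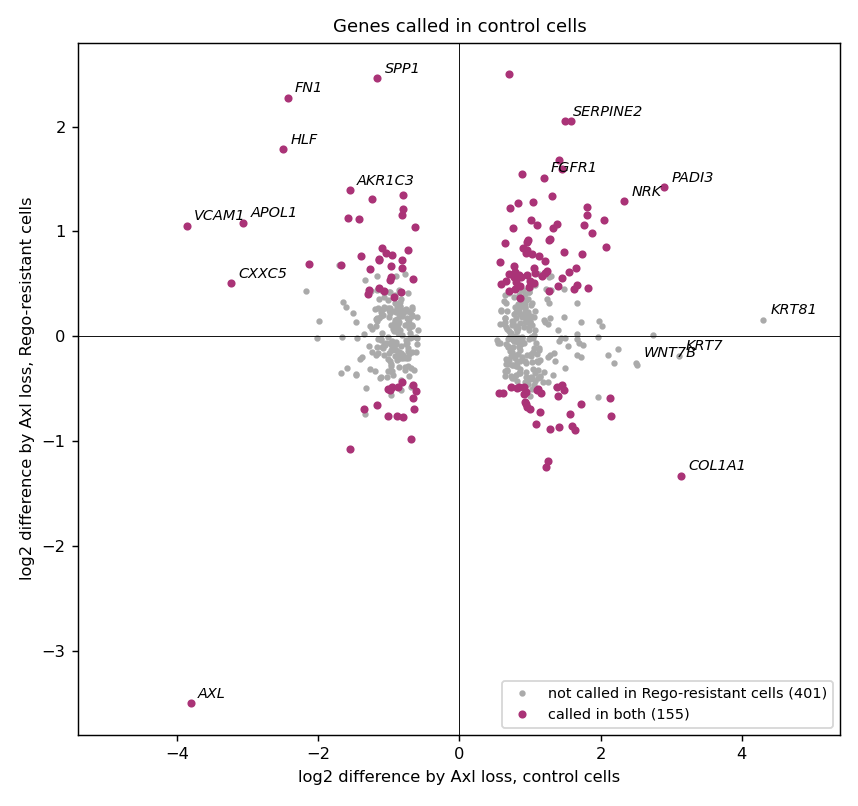
Log2 difference by genotype in control cells (x axis) against that in Rego-resistant cells (y axis) for the 556 genes called in control cells and listed in both comparisons, with the 155 called in both in purple. AXL lies at -3.81 and -3.50, while FN1, HLF, VCAM1 and APOL1 lie at the upper left and COL1A1 at the lower right.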

How the data were processed

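RNA of 12 libraries was sequenced from the 3′ end (QuantSeq forward, Lexogen). Per the labels and file headers, the authors trimmed reads with cutadapt 4.0, aligned them with STAR 2.5.3a to GRCh38 and counted them on GENCODE 40. The deposited library values are a score, namely the rounded power of 2 of variance-stabilized levels after the preparation date had been removed, made separately in each of 8 tables. The authors' mean normalized count per gene is a pooled signal. Columns with the authors' own fold changes and p-values were not used. Depth per library and the strand setting of counting are not given in the sources used here, and the values cannot be turned into counts per library.

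Values were compared on the log2 scale with limma 3.58.1 (R 4.3.3; lmFit, eBayes with trend) with the replicate number as a block and Benjamini-Hochberg adjustment over all genes of a table, spike-ins left out, called under 0.05. The pairing comes from the authors' correction for the preparation date, which ties same-numbered libraries. The interaction was fitted in a table of all 12 libraries. Coordinates are those of the files, and promoters are from RefSeq (GRCh38.p14), matched by symbol for 10168 tested genes and unmatched for 3866. The fit was tested on simulated data.

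The members and the 34 gene lists were chosen with earlier results of these data known. Named genes were the TAM and ErbB genes and FGF2, and the 12 largest rises and falls among called genes without overlap between the groups. They were further up to 4 called members per list, 5 extremes of the interaction in each direction, and called genes near AXL or in the extreme windows. Further list members were chosen after their values were seen. Alternatives were no block, a pseudocount of 1, a mean normalized count of at least 20, other centring, no trend, the table of 12 libraries, leaving out a replicate number and windows of 80 genes. Figures were drawn with matplotlib 3.10.9. Results of some genes are not reported here.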

Additional observations from a re-analysis of the deposited data

Results flagged for a closer look

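The genotype difference in control cells differed from that in Rego-resistant cells for 74 of the 107 named genes, beside 5.87% of all genes. The test was the interaction in limma on 12 libraries at an adjusted p under 0.05. Many named genes were chosen by their control difference, which is part of the interaction, or by the interaction itself. A high share was thus built in by the choice. Values are interactions on the log2 scale, control minus resistant, and a value below 0 means that the difference between SNU449-Axl- and SNU449 was lower in control cells. Of these 74, 35 missed the threshold without replicate 1, 43 without replicate 2, 9 without replicate 3, and 7 with centring on the spike-in RNAs. No cause of these differences was tested.

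Below 0, the largest values were those of VCAM1 (-5.91), HLF (-5.75), UCHL1 (-5.66), APOL1 (-4.75), CXXC5 (-4.71) and FN1 (-4.71). They were followed by BCAT1 (-4.04), SPP1 (-3.72), MACROD2 (-3.51) and TSPAN7 (-3.22). NHS had -2.77 and TMPRSS15 -2.62. Genes of interferon response, antigen presentation and cytokines were GBP2 (-3.04), IFI16 (-2.02), UBE2L6 (-1.97), IL15 (-1.94), PSMB9 (-1.61), PSMB8 (-1.51) and APOL2 (-1.27). Genes of redox and metabolism were AKR1C3 (-2.99), CYP1B1 (-2.71), GPAT3 (-2.07), PHGDH (-1.99), SLC7A11 (-1.95), TXN (-1.86), TXNRD1 (-1.70), MSMO1 (-1.64), PDK1 (-1.53), ADH5 (-1.25) and BNIP3 (-1.19). Of signalling and other genes, PDGFC had -2.43, TENM3 -2.30, NTRK3 -1.45, MMP16 -1.42, the histone gene H2AZ1 -1.40 and TGFA -0.93.

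Above 0, the largest values were those of COL1A1 (4.78), KRT81 (4.61), KRT7 (3.96), DNER (3.62), PCDH9 (3.59), ARHGDIB (3.27), WNT7B (3.17), PSG5 (3.11), COL11A1 (3.10), ID3 (3.02) and FRMD4A (3.01). DNER, a Notch ligand, had 2.00 in the control comparison and missed its threshold (adjusted p = 0.0553 from limma). Ligands, receptors and their regulators were GDF15 (2.55), AREG (2.31), BMP4 (2.30), EREG (2.25), BMP6 (1.88), RNF43 (1.77), NKD2 (1.77), EPHA7 (1.66), LRIG1 (1.38), FZD2 (1.33), GAS6 (1.30) and ETV5 (1.06). Genes of adhesion, matrix and guidance were PLXNA1 (1.92), ITGB5 (1.81), JUP (1.52), LAMB3 (1.46), FAP (1.27) and CNFN (1.09). The others were ANKRD1 (2.63), IVNS1ABP (2.21), NT5E (2.18), ALDH1A3 (2.14), IFITM2 (2.11), NR2F6 (1.71), MYO10 (1.43), TARS1 (1.25) and ONECUT1 (1.12).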

How the results depend on the processing

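The replicate block decided how many of the genes were called in control cells. Without the block 3751 were called (1982 higher, 1769 lower), the 599 among them, and 244 instead of 91 list members. The interaction was then called for 1827 genes (926 higher, 901 lower). With centring on the spike-in RNAs 2131 genes were called (1967 higher, 164 lower), 479 of the 599 among them, and 207 interactions were above 0. Centred on the upper quartile, 423 genes were lower. In the table of 12 libraries 1160 were called (628 higher, 532 lower), 581 of the 599 among them. Leaving out 1 replicate number left 1 residual degree of freedom and from 0 to 0 calls in control cells, higher or lower, while the interaction had 112 to 745 calls (45 to 369 above and 67 to 376 below 0). With windows of 80 genes the highest median was 0.62 and the lowest -0.50.

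With a pseudocount of 1, a mean normalized count of at least 20 or no trend, 603, 618 and 578 genes were called, 599, 503 and 511 of the 599 among them. No called difference or interaction of a named gene changed its sign in these alternatives, but several uncalled ones did. Centred on the spike-in RNAs, ERBB2 had 0.080 and TYRO3 0.22 in control cells, and the interaction of EGFR was -0.068. Leaving out 1 replicate number, TYRO3 ran from -0.23 to 0.10, MERTK from -0.042 to 0.13 and EGFR from -0.32 to 0.26. Interactions then ran from -0.21 to 0.0031 for TYRO3, from -0.36 to 0.33 for EGFR, from -0.20 to 0.024 for PROS1, from -0.18 to 0.57 for CXCL5 and from -0.35 to 0.16 for S100A4. Of 98 named genes called in control cells, 6 missed the threshold with spike-in centring, 9 without the trend, 1 in the table of 12 libraries and 98 with any replicate number left out. Same-numbered libraries of both genotypes mirror each other, so that which library of a pair stands apart cannot be told apart. As depth per library is unknown, changes of weakly expressed genes are limited by the minimum of the values.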

Other observations

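Of 34 transcripts of the mitochondrial genome, 5 were higher in SNU449-Axl- control cells and 0 lower, beside 2.33% and 1.94% of all genes. Their median log2 difference was 0.34. SLC7A11-AS1, annotated antisense to SLC7A11, had values of 37, 44 and 42 in SNU449 and of 109, 92 and 97 in SNU449-Axl- (1.28), opposite to SLC7A11 (-1.64). The strand setting of counting is not given, so that reads of both cannot be assigned with certainty. Of 4 metallothionein genes, MT1F was higher (0.70), while MT1E, with a larger difference of 1.78, missed the threshold (adjusted p = 0.0703 from limma), and the family is near-identical. All these were chosen after their values were seen.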
